A study of Mus musculus with 34 samples.

Results

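The binding landscape of 6 interleukin genes was examined in macrophages: Il6, Il10, Il12a, Il12b, Il23a and Il27. All peaks with a midpoint in the gene body or within 20 kb on either side were taken from 30 ChIP-seq peak lists, and peaks that overlapped were joined into loci. This gave 485 of the 596383 peaks and 57 of the 93024 loci, of which 4 lay at Il6, 15 at Il10, 6 at Il12a, 9 at Il12b, 4 at Il23a and 19 at Il27. The lists come from thioglycollate elicited macrophages (TGEMs), cells that thioglycollate recruits to the peritoneum and that are flushed from it. The wild-type mice of both strains were male and aged 8 weeks. In C57Bl/6EiJ the AP-1 monomers ATF3, Jun, JunD, Fos, Fra2 and JunB, the lineage factors PU.1 and CEBPa and, with vehicle only, PPARg were mapped. These cells received PBS (Veh) or 100 ng/mL Kdo2 lipid A (KLA), a specific TLR4 agonist, for 1 h. In Balb/cJ the same AP-1 monomers except Fra2 were mapped with Veh and KLA. In the PPARgKO group, made on C57Bl6, ATF3, Jun and JunD were mapped with Veh. How PPARg was removed, and from which cells, is not given in the sources used here, nor are the sex and age of these mice. No list measures the knockout.

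AP-1 is a dimer of bZIP proteins from the Jun, Fos and ATF families that binds a short palindrome, and it is among the main factors by which macrophages answer TLR4 ligands together with NF-kB. The 6 genes encode secreted proteins of that answer. Il6 (ENSMUSG00000025746.11, chr5:30013114-30019981, plus strand) encodes the acute-phase cytokine IL-6. Il12a (ENSMUSG00000027776.12, chr3:68690644-68698547, plus strand) encodes the p35 subunit of IL-12, and Il12b (ENSMUSG00000004296.14, chr11:44400063-44414033, plus strand) encodes the p40 subunit that IL-12 and IL-23 share. Il23a (ENSMUSG00000025383.2, chr10:128296139-128298752, minus strand) encodes the p19 subunit of IL-23. Il27 (ENSMUSG00000044701.5, chr7:126589010-126594941, minus strand) encodes the p28 subunit of IL-27, a cytokine with both pro- and anti-inflammatory actions that is grouped here with the pro-inflammatory genes. Il10 (ENSMUSG00000016529.5, chr1:131019845-131024974, plus strand) encodes the anti-inflammatory cytokine IL-10, which restrains the production of the others. Coordinates are on mm10, the build of the lists, and gene models are those of GENCODE M21.

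Each condition has 1 list, made by the authors from replicate experiments, so no comparison between conditions could be tested and there are no replicate values. A peak is therefore given by its count, a whole number not scaled to library size, and by the percentile of that count within its own list (100 is the strongest). The 28 lists with more than 100 peaks held 463 to 41573 peaks, the Balb/cJ lists of Fos and JunB in Veh held 0 and 9 peaks, and 4 input samples have no list. The lowest count in a list ranged from 11 to 120, which decides how weak a peak can be and still be seen. The lowest count was 120 in the JunD KLA list against 27 in the JunD Veh list of C57Bl/6EiJ, and 110 in the PU.1 Veh list against 25 in the PU.1 KLA list, so counts are not compared between lists. In the PU.1 Veh list, 10 of 10 macrophage markers had a peak within 20 kb and 8 of 10 had it within 1 kb of the transcription start site (TSS). Of 17 markers of T cells, B cells, neutrophils, mast cells and fibroblasts, 10 had a PU.1 peak within 20 kb and 1 had it within 1 kb of the TSS. Binding does not measure expression.

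The sequences below are the loci that the results turn on. For each gene the locus seen in the most lists is shown, together with the Il23a promoter. Also shown are the strongest Il27 locus nearest to that gene and, of Il10 loci occupied with both treatments, those 1.8 and 6.1 kb downstream. Each runs 5′ to 3′ on the plus strand of GRCm38 and covers the central 200 bp of the strongest AP-1 peak of the locus. It also covers the centre of the locus, except for Il12a and the locus 0.4 kb downstream of Il23a, where the peak and the centre lie too far apart to print together. Capitals mark exact matches on either strand to the AP-1 site TRE (TGACTCA or TGAGTCA), the CRE (TGACGTCA), a PU.1 site (ACTTCCT), a CEBP site (TTGCNNAA), or the consensus of IRF or NF-kB, where N is any base.
Il6 promoter (chr5:30012799-30013084): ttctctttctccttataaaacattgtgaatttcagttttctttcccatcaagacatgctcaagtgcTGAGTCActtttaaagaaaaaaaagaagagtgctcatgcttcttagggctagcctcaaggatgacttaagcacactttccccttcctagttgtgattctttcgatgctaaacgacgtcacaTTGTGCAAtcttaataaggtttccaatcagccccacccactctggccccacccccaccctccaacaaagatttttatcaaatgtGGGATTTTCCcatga
Il12a, 18.9 kb downstream (chr3:68709547-68709746): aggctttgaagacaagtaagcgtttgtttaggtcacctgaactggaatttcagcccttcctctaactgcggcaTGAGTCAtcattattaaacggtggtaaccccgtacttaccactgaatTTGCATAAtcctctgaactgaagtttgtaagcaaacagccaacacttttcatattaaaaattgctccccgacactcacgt
Il12b, 9.8 kb upstream (chr11:44390085-44390339): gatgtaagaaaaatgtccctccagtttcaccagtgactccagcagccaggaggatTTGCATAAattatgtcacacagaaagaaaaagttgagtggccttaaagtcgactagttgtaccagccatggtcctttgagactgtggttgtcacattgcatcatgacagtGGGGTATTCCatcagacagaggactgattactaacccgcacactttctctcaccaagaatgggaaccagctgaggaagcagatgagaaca
Il23a, 0.4 kb downstream (chr10:128298446-128298645): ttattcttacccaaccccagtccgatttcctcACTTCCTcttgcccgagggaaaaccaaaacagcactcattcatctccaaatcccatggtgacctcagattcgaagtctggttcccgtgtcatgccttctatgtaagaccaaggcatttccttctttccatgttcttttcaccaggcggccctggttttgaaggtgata
Il23a promoter (chr10:128298858-128299070): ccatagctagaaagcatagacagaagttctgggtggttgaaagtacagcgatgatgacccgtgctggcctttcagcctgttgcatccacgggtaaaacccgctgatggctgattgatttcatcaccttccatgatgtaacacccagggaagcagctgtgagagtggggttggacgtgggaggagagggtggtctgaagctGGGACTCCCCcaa
Il27, 10.2 kb downstream, at the Apobr promoter (chr7:126584663-126584937): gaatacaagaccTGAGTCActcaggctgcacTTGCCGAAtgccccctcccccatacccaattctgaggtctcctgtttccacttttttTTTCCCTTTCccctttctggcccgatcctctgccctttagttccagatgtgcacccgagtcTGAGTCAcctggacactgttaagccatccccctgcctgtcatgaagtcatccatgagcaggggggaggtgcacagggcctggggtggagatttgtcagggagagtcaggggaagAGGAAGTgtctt
Il27, 4.2 kb upstream (chr7:126599065-126599271): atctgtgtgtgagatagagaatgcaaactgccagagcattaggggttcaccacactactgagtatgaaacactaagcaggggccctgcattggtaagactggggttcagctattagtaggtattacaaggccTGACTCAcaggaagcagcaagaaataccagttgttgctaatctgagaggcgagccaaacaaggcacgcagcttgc
Il10, 1.8 kb downstream (chr1:131021591-131021798): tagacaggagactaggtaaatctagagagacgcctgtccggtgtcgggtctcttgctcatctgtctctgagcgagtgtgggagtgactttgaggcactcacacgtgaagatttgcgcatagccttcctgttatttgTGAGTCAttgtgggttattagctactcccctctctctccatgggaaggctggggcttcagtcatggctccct
Il10, 6.1 kb downstream (chr1:131025887-131026137): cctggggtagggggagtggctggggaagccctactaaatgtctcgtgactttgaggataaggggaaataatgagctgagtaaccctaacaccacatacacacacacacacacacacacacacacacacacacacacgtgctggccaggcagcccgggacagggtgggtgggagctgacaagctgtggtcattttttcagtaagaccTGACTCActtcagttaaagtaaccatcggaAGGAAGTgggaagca
Il10, 18.4 kb downstream (chr1:131038131-131038391): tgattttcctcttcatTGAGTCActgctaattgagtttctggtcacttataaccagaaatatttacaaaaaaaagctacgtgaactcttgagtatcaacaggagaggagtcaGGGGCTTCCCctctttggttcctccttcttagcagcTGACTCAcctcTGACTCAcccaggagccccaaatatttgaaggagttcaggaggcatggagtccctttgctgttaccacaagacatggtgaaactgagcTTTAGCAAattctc

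Across the 57 loci, 44 had a peak of at least 1 AP-1 monomer in C57Bl/6EiJ, 3 at Il6, 13 at Il10, 3 at Il12a, 8 at Il12b, 4 at Il23a and 13 at Il27. Of these 44 loci, 28 had peaks in KLA lists and in no Veh list, 16 had peaks with both treatments and 0 had peaks with Veh only. Among protein-coding genes no longer than the longest of the 6 (14 kb, 9659 genes), the median was 1 AP-1 locus in the same window. Only 0.663% of those genes had as many AP-1 loci as Il10 or Il27, 4.71% had as many as Il12b, 20.6% as many as Il23a and 29.1% as many as Il6 or Il12a. The loci of Il6, Il10, Il12a and Il12b were all nearest to the TSS of the gene itself. At Il23a 1 of 4 loci and at Il27 8 of 19 loci were nearer to the TSS of a neighbour (Pan2 at Il23a, and Apobr, Cln3, Eif3c or Nupr1 at Il27), and assignment by distance does not show which gene a locus serves.

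**Figure D1:**
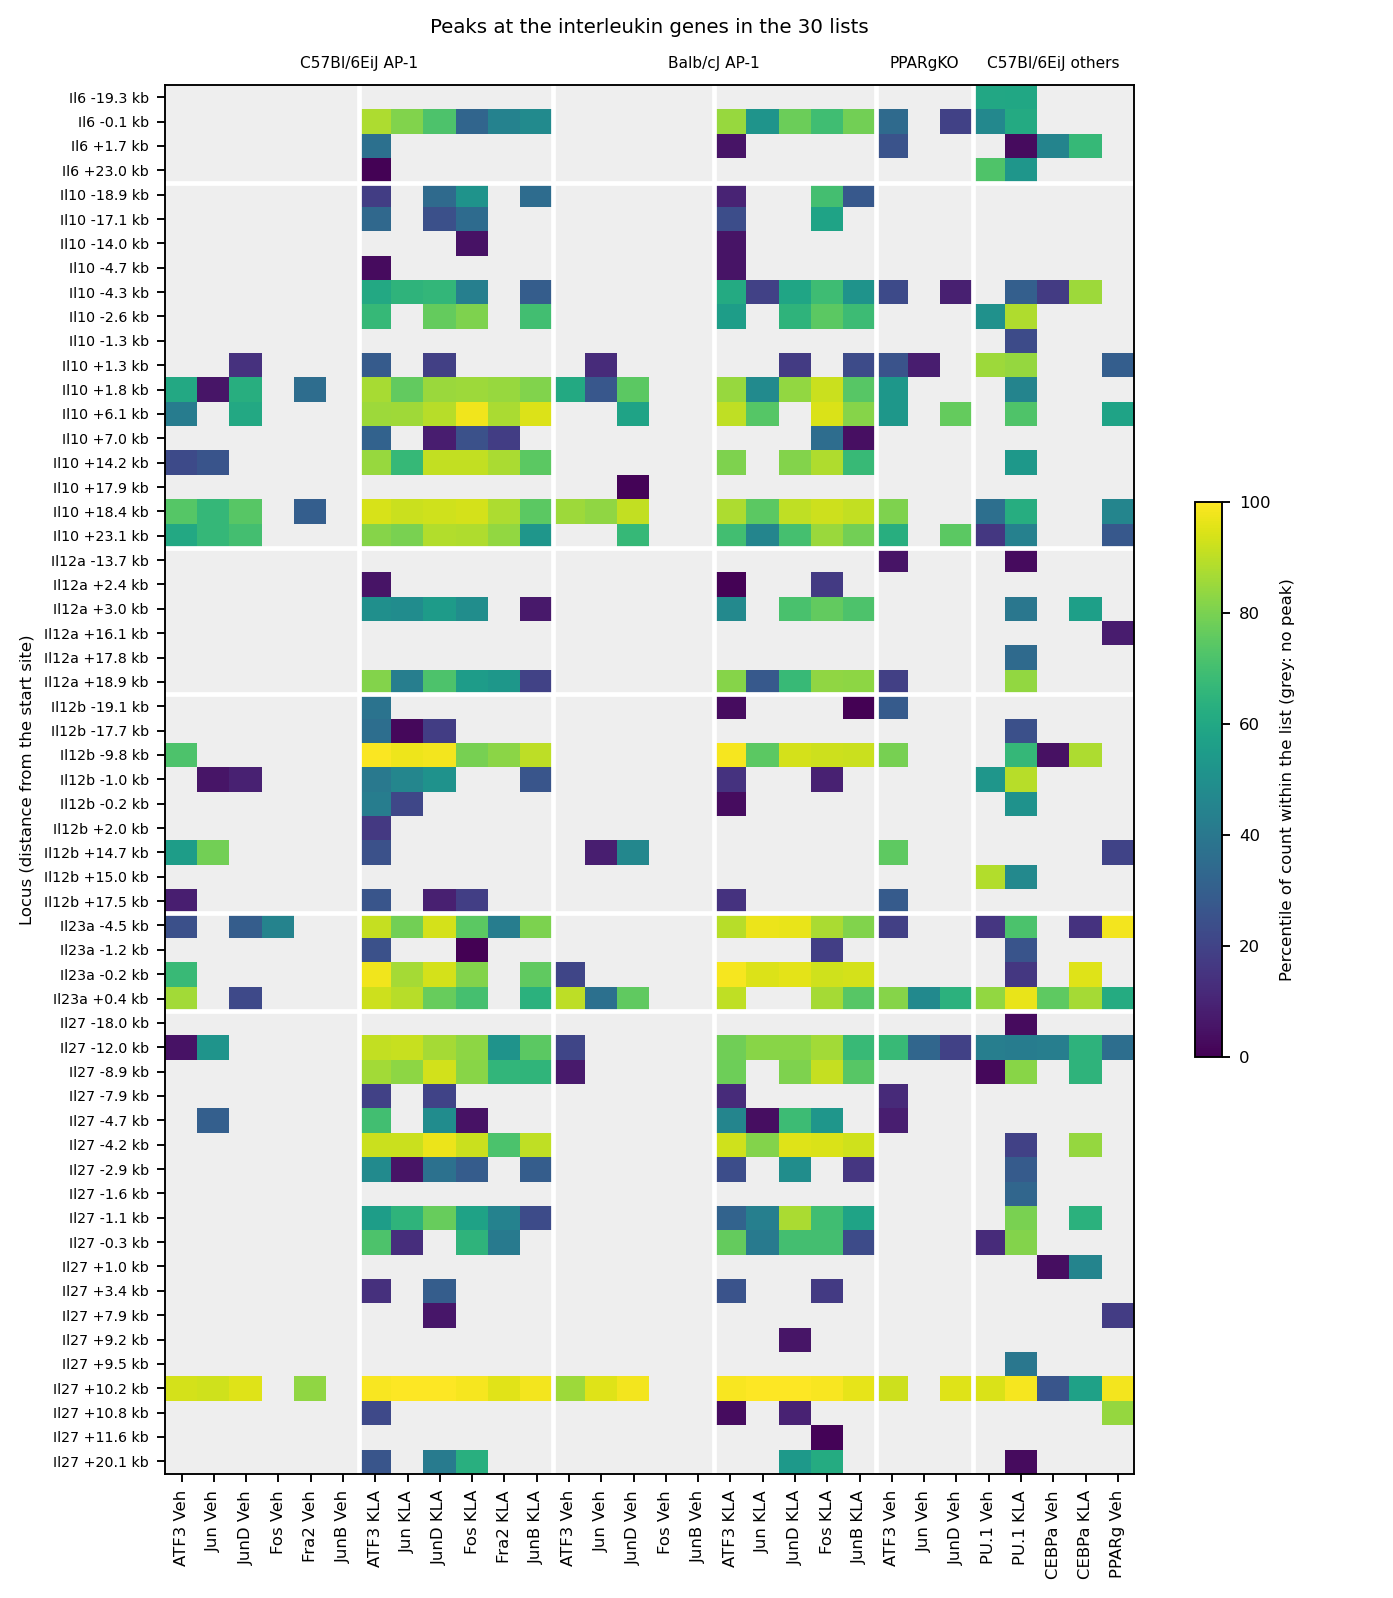
Percentile of the count within its list for the strongest peak at each of the 57 loci (rows, named by gene and distance of the locus centre from the TSS) in each of the 30 lists (columns), with grey for no peak. The Veh columns of Il6 and Il12a hold no wild-type AP-1 peak, whereas 6 Il10 loci have peaks with both treatments.

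At Il6, AP-1 peaks in wild-type TGEMs appeared with KLA only. The promoter locus (chr5:30012651-30013319, centred 0.1 kb upstream of the TSS) had peaks of all 6 monomers with KLA and of none with Veh in either strain. In C57Bl/6EiJ KLA the count was 171 for ATF3 (percentile 87.7), 48 for Jun (80.9), 398 for JunD (72), 40 for Fos (32.8), 45 for Fra2 (44.2) and 33 for JunB (48). ATF3 and Jun thus stood high in their lists and Fos stood low. In Balb/cJ KLA the same locus had 97 for ATF3 (84.4), 37 for Jun (51.8), 84 for JunD (77.5), 98 for Fos (69.4) and 72 for JunB (78.9). These percentiles are not read against those of C57Bl/6EiJ, since the lists differ in length (40459 against 24365 peaks for Fos). PU.1 was present with both treatments, at 244 with Veh (46.7) and 76 with KLA (61). Its peaks lay beside those of AP-1, starting at position 30013105 with Veh and 30013094 with KLA. Only the Fos KLA peak of C57Bl/6EiJ, which ends at 30013099, overlapped the PU.1 KLA peak, and no AP-1 peak overlapped the PU.1 Veh peak. An intronic locus 1.7 kb downstream carried CEBPa with Veh (71, percentile 45.3) and KLA (91, percentile 66.9), and ATF3 was the only monomer there, with KLA (61, percentile 37.1). A locus 23 kb downstream of the TSS carried PU.1 with both treatments and an ATF3 KLA peak near the bottom of its list (32, percentile 0.422).

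At Il12a, likewise, no wild-type Veh list of AP-1 had a peak. A locus 18.9 kb downstream of the TSS (chr3:68709272-68709777) had all 6 monomers with KLA, with 142 for ATF3 (81.5), 28 for Jun (42.9), 398 for JunD (72), 55 for Fos (55.3), 50 for Fra2 (52.9) and 23 for JunB (19.7). ATF3 and JunD were the strongest there and JunB the weakest. PU.1 was seen at this locus with KLA (131, percentile 83.8) and not with Veh. An intronic locus 3.0 kb downstream had 5 monomers with KLA, all but Fra2, between percentile 6.67 (JunB) and 54.8 (JunD), with CEBPa (76, percentile 56.5) and PU.1 (52, percentile 39.5) in the KLA lists only. The remaining AP-1 locus, 2.4 kb downstream, had a weak ATF3 KLA peak (37, percentile 5.45).

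At Il12b the strongest locus lay 9.8 kb upstream of the TSS (chr11:44390017-44390463). With KLA all 6 monomers were present, ATF3 at 348 (rank 194 of 36745, percentile 99.5), JunD at 824 (rank 523 of 31640, 98.3), Jun at 81 (rank 453 of 17480, 97.3), JunB at 70 (89.9), Fra2 at 76 (82.5) and Fos at 85 (79.3). With Veh ATF3 alone was present, at 83 (percentile 72.2). CEBPa moved from near the bottom of its Veh list (36, percentile 4.61) to the upper part of its KLA list (145, percentile 87.8), and PU.1 was seen with KLA only (85, percentile 66.6). Closer to the gene, a locus 1.0 kb upstream had weak Veh peaks of Jun (14, percentile 5.5) and JunD (32, percentile 9.23) and KLA peaks of 4 monomers between percentile 26.2 (JunB) and 51.1 (JunD), beside PU.1 at percentile 52.5 with Veh and 89.1 with KLA. The promoter locus itself, 0.2 kb upstream, had ATF3 (66, percentile 42.3), Jun (22, percentile 21.2) and PU.1 (63, percentile 50.8) with KLA only. In contrast, a locus 14.7 kb downstream of the TSS, just past the gene's end, ranked lower with KLA. Its Jun Veh peak (39, percentile 78.6) had no counterpart in the KLA list, ATF3 stood at percentile 55.6 with Veh and 24.8 with KLA, and PPARg was present (21, percentile 20.1). A locus 17.7 kb upstream had ATF3, Jun and JunD with KLA only, at percentiles from 2.15 (Jun) to 36 (ATF3), and a locus 17.5 kb downstream had ATF3 with both treatments.

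At Il23a, 2 neighbouring loci flanked the TSS. The locus centred 0.4 kb downstream (chr10:128298043-128298690), within the gene, already had ATF3 with Veh at 119 (percentile 86.3) and JunD at 37 (22.1). With KLA it had 204 for ATF3 (92.4), 58 for Jun (89.3), 435 for JunD (76.8), 71 for Fos (70.7) and 41 for JunB (64). The promoter locus 0.2 kb upstream (chr10:128298824-128299118) had ATF3 with Veh (76, percentile 67.9) and ATF3 (282, rank 769 of 36745, percentile 97.9), JunD (658, 93.6), Jun (54, 86.5), Fos (90, 81.6) and JunB (50, 75.6) with KLA. Fra2 had no peak at either locus. PU.1 was strong at the downstream locus with Veh (532, percentile 83.7) and KLA (231, percentile 96.8). CEBPa was present there with both treatments (percentiles 75.3 and 86.4) and at the promoter locus with KLA only (193, percentile 95.3). The largest locus of the window, 4.5 kb upstream of Il23a and at the promoter of Pan2, spanned 1332 bp of chained peaks and carried a PPARg peak of rank 483 of 31089 (243, percentile 98.4) with all 6 monomers in KLA.

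At Il27, 10 of the 13 AP-1 loci were seen with KLA only. The locus in the most lists, 25 of 30, lay 10.2 kb downstream (chr7:126584490-126585037), past the end of Il27 and at the promoter of Apobr, an apolipoprotein B receptor gene. It ranked 39 of 31640 for JunD KLA (1009), 47 of 17480 for Jun KLA (110), 293 of 24365 for Fos KLA (191), 208 of 13375 for JunB KLA (109), 314 of 36745 for ATF3 KLA (328) and 463 of 10619 for Fra2 KLA (105). It was also occupied with Veh by ATF3 (158, percentile 93.6), Jun (56, 92.8), JunD (125, 95.1) and Fra2 (35, 83.4) and by PPARg (225, percentile 98.2). Of the 8 AP-1 loci upstream of Il27, 6 had no Veh peak in C57Bl/6EiJ. The locus 4.2 kb upstream (chr7:126598886-126599444) had all 6 monomers with KLA and none with Veh, at 756 for JunD (rank 978 of 31640, 96.9), 200 for ATF3 (92), 63 for Jun (92), 123 for Fos (91.8), 71 for JunB (90.4) and 64 for Fra2 (71.8), and CEBPa joined with KLA (131, 84.3). The locus 8.9 kb upstream had all 6 with KLA only, from percentile 65.6 (JunB) to 93.1 (JunD), although Balb/cJ had a weak ATF3 Veh peak there (18, percentile 7.36), with PU.1 moving from percentile 1.98 with Veh to 82.2 with KLA. The locus 1.1 kb upstream had all 6 with KLA only, from percentile 23 (JunB) to 76.6 (JunD). At the promoter, 0.3 kb upstream, ATF3 (113, 72.2), Fos (64, 64.9), Fra2 (43, 40.8) and Jun (20, 12.9) were present with KLA only, and PU.1 stood at percentile 12.2 with Veh and 81.3 with KLA. Further loci seen with KLA only in at least 3 lists lay 2.9 kb upstream (5 monomers, percentile 5.2 to 47.9) and 20.1 kb downstream, in an intron of Cln3 (3 monomers, percentile 26.2 to 63.1). The locus 12 kb upstream was occupied with both treatments, by ATF3 (29, percentile 4.7) and Jun (26, percentile 51.6) with Veh and by all 6 monomers with KLA, between percentile 51.2 (Fra2) and 91.5 (Jun).

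At Il10 the loci formed an upstream and a downstream group. The 6 AP-1 loci upstream of the TSS were all seen with KLA only, and 6 of the 7 downstream were occupied with both treatments. The strongest upstream locus, 2.6 kb from the TSS (chr1:131017054-131017427), had Fos (88, percentile 80.6), JunD (431, 76.3), JunB (45, 69.8) and ATF3 (101, 66.8) with KLA, and PU.1 with Veh (262, 50.7) and KLA (151, 88). The locus 4.3 kb upstream had 5 monomers with KLA, from percentile 29.5 (JunB) to 66.4 (JunD), and CEBPa at percentile 17.4 with Veh and 85.3 with KLA. The loci 17.1 and 18.9 kb upstream had 3 and 4 monomers with KLA, at most at percentile 51.5 (Fos), and the loci 14.0 and 4.7 kb upstream had 1 each below percentile 5. No AP-1 locus lay within 1 kb of the Il10 TSS, and the locus closest to it, 1.3 kb upstream, had PU.1 with KLA alone (40, percentile 22.8).

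Downstream, the intronic locus 1.8 kb from the Il10 TSS (chr1:131021529-131021853) had ATF3 (66, percentile 60.3), JunD (59, 62.6), Fra2 (22, 35.9) and Jun (14, 5.5) with Veh. With KLA it had 167 for ATF3 (87), 99 for Fos (85.2), 514 for JunD (84.9), 79 for Fra2 (84.4), 56 for JunB (81) and 44 for Jun (76.1). The locus 6.1 kb downstream (chr1:131025765-131026209) had ATF3 (50, 42.1) and JunD (57, 60.3) with Veh and held the highest-ranked peak at Il10, Fos KLA at 171 (rank 532 of 24365, percentile 97.8), beside JunB at 85 (94.8), JunD at 576 (89.4), Fra2 at 84 (87.2), Jun at 53 (85.8) and ATF3 at 159 (85.4). The locus 14.2 kb downstream had weaker Veh peaks of ATF3 (38, 22.4) and Jun (19, 25.8) and all 6 monomers with KLA, from percentile 67 (Jun) to 91 (Fos). The locus 18.4 kb downstream (chr1:131038026-131038437) was seen in 22 lists, the most at Il10. Its Veh peaks were ATF3 (86, 73.8), JunD (71, 74.2), Jun (32, 66.6) and Fra2 (21, 29.7), and its KLA peaks ran from JunB (49, 74.7) to ATF3 (216, 93.8). The locus 23.1 kb downstream had ATF3 (60.3), Jun (66.6) and JunD (70) with Veh and all 6 with KLA, from percentile 52.7 (JunB) to 88.3 (JunD). A second intronic locus, 1.3 kb downstream, was weak for AP-1 (JunD with Veh at percentile 14.3, ATF3 and JunD with KLA at 28.7 and 19) but strong for PU.1 with both treatments (85.2 and 84). The locus 7.0 kb downstream had 4 monomers with KLA only, at most at percentile 31.3 (ATF3).

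**Figure D2:**
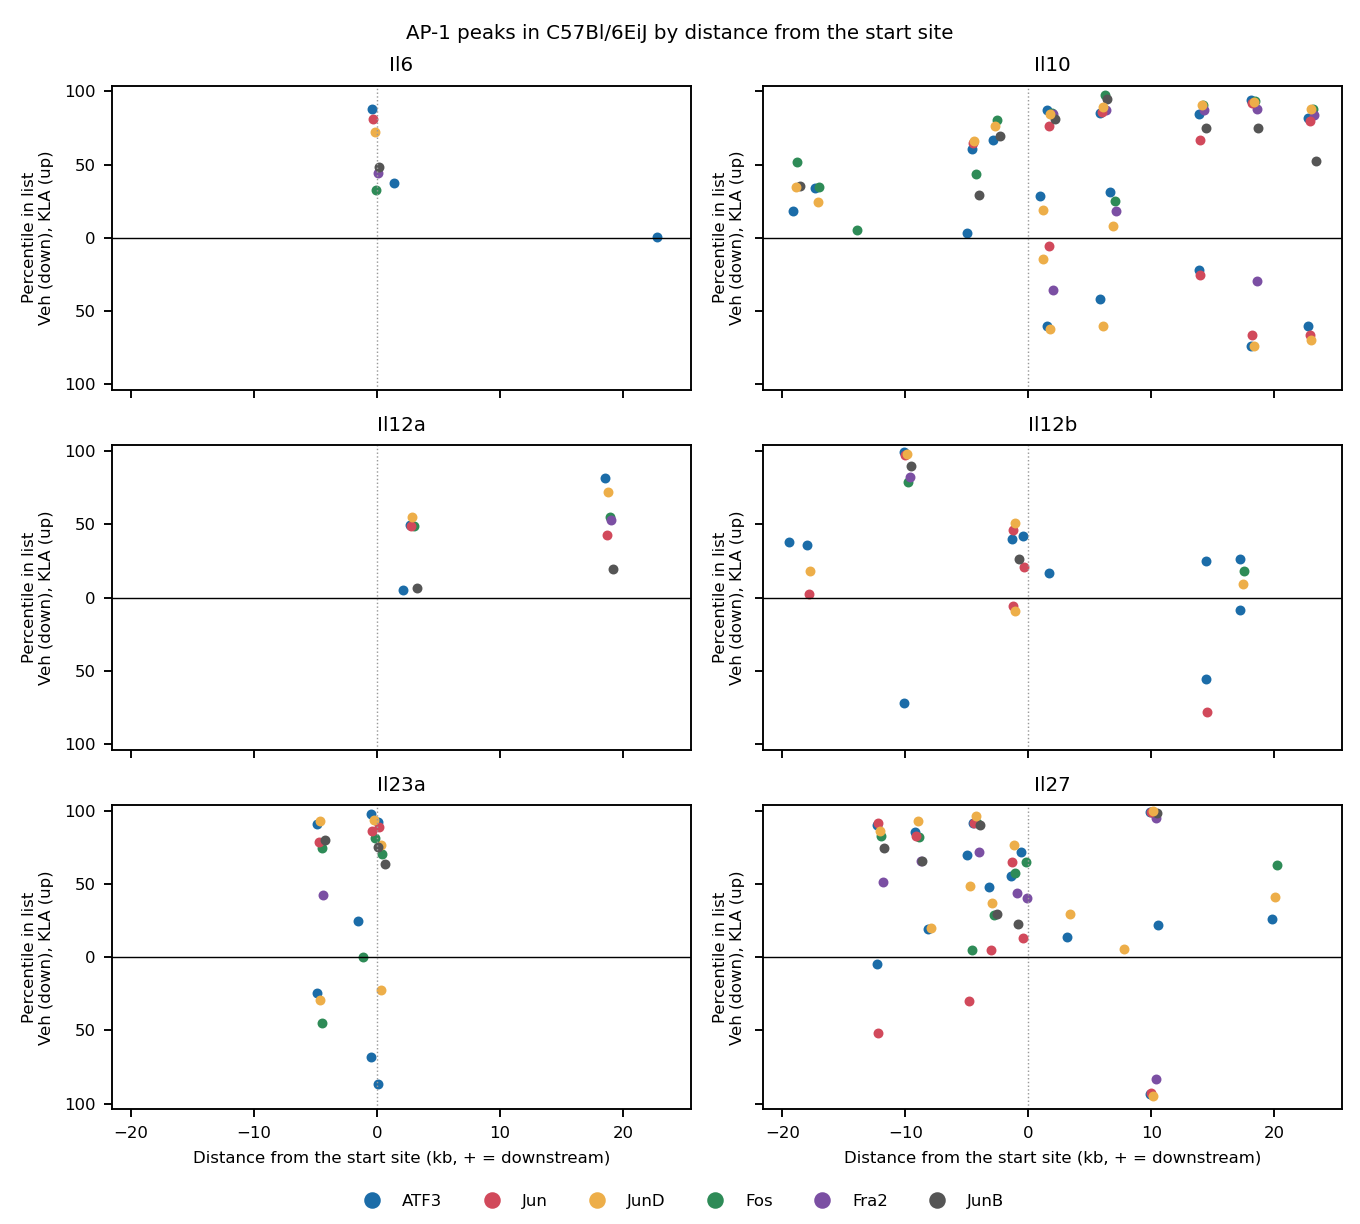
AP-1 peaks of C57Bl/6EiJ at each gene by distance of the locus from the TSS (x axis, kb, positive downstream) and percentile of the count within the list (y axis, KLA upwards and Veh downwards from 0), with 1 point per monomer and locus. Points below the line are absent at Il6 and Il12a and lie downstream of the TSS at Il10.

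The comparison of KLA with Veh asks at which loci binding appeared after activation. For each monomer, a locus was called gained where the KLA list had a peak and the Veh list had none, and the share gained was set beside the same share over all loci of that monomer. ATF3 was gained at 29 of 42 loci (69%, against 43.3% of all ATF3 loci), Jun at 16 of 25 (64%, against 34.9%), JunD at 23 of 32 (71.9%, against 45.0%) and Fra2 at 13 of 16 (81.2%, against 59.8%). Fos was gained at 28 of 29 (96.6%, against 92.7%) and JunB at 22 of 22 (100%, against 96.6%), shares near those of all loci. The Veh lists of these monomers held only 1804 and 463 peaks. The 2 losses in C57Bl/6EiJ, both of Jun, lay 14.7 kb downstream of Il12b and 4.7 kb upstream of Il27. In Balb/cJ, ATF3 was gained at 28 of 35 loci (80%, against 51.4%), Jun at 13 of 19 (68.4%, against 34.6%) and JunD at 20 of 28 (71.4%, against 35.4%). Losses there were 0 of 7 Veh loci for ATF3, 3 of 6 for Jun and 4 of 8 for JunD. The shares kept were 100%, 50% and 50%, against 81.9%, 50.6% and 63% of all such loci. PU.1 was gained at 22 of 37 loci (59.5%, against 19.0%) and lost at 0. Its Veh list has the higher lowest count (110 against 25), and how far this bears on the PU.1 gains was not tested. CEBPa was gained at 6 of 13 (46.2%, against 30.9%). The median percentile of the gained peaks was 71.8 for Jun and 54.8 for JunD, against 36.4 and 35.5 for all gained peaks, and 37.1 against 31.3 for ATF3. Where a locus was occupied with both treatments, the median percentile of ATF3 was 60.3 with Veh and 90.8 with KLA, against 57.6 and 68.3 over all such ATF3 loci. Over all AP-1 lists, 28 of 44 loci (63.6%, 95% Wilson interval 48.9 to 76.2 over loci) were seen with KLA only, against 38.0% of all AP-1 loci. Each of the 6 genes had at least 1 such locus, as did 43.4% of protein-coding genes.

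Il10 was then set against the 5 pro-inflammatory genes. Of its 13 AP-1 loci, 7 were seen with KLA only (53.8%, interval 29.1 to 76.8), against 21 of 31 loci (67.7%, interval 50.1 to 81.4) at the other genes. The intervals overlap, they treat neighbouring loci as independent, and the difference was not tested. The pro-inflammatory genes were not alike. The share was 3 of 3 at Il6 and at Il12a, 10 of 13 at Il27, 4 of 8 at Il12b and 1 of 4 at Il23a, so that Il12b and Il23a had shares below that of Il10. With the KLA lists of ATF3, Jun and JunD shortened to their strongest peaks, as many as in the Veh lists, and only these monomers considered, it was 2 of 8 (25%) at Il10 and 11 of 21 (52.4%) at the other genes, against 20.7% over all loci. By monomer, ATF3 was gained at 7 of 12 Il10 loci (58.3%) and 22 of 30 loci of the other genes (73.3%) in C57Bl/6EiJ. In Balb/cJ it was gained at 9 of 11 (81.8%) and 19 of 24 (79.2%), so the order was reversed. Jun (50% and 76.9%) and JunD (44.4% and 84.2%) of Balb/cJ kept the lower share at Il10. The loci with peaks of all 6 monomers in KLA were then counted in C57Bl/6EiJ, a comparison chosen after the values were seen. All 5 such Il10 loci also had a Veh peak (0 of 5 seen with KLA only). At the pro-inflammatory genes this held for 4 of 9, of which 2 were nearer to Pan2 or Apobr, and 5 of 9 were seen with KLA only, against 13.4% of all loci with 6 monomers. At 3 Il10 loci ATF3, Jun and JunD were all present with Veh, as they were at 1 locus of the other genes, that at the Apobr promoter. With KLA the median percentile at Il10 was 63.6 for ATF3, 78 for Jun, 76.3 for JunD, 80.6 for Fos, 85.8 for Fra2 and 72.2 for JunB, against 45.1, 78.6, 72, 64, 52.1 and 64.8 at the other genes. The Fra2 values rest on 6 and 10 loci.

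**Figure D3:**
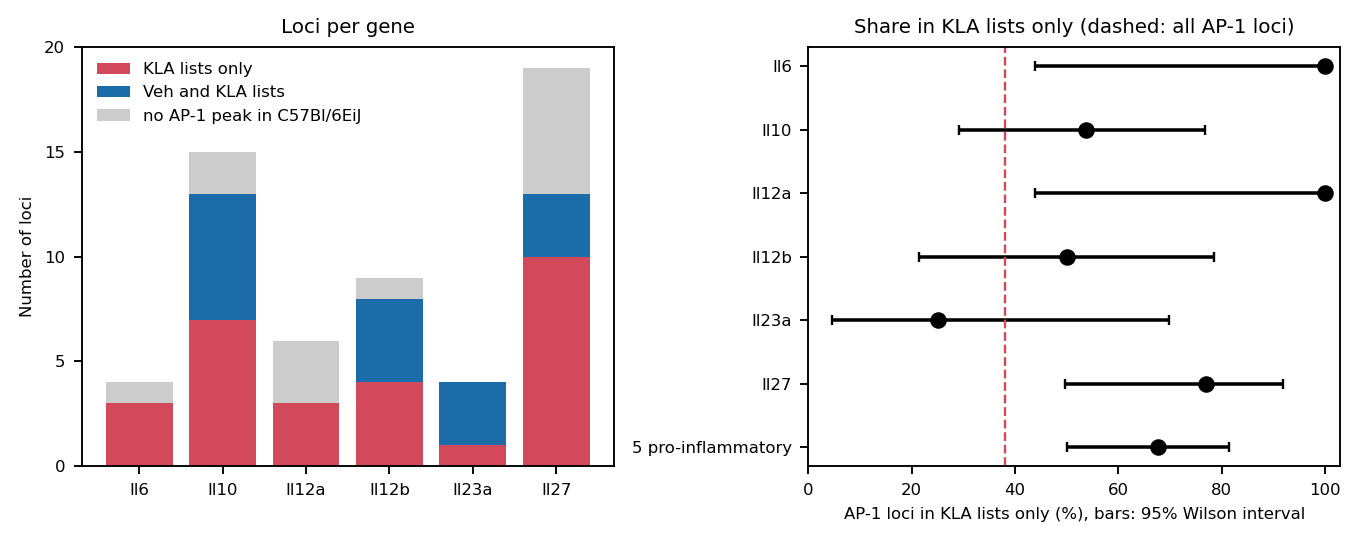
Number of loci per gene seen in AP-1 lists of C57Bl/6EiJ with KLA only, with Veh and KLA, or in no such list (left), and the share of AP-1 loci seen with KLA only with 95% Wilson intervals over loci (right). The dashed line marks 38.0%, the share over all AP-1 loci, and the intervals of Il10 (53.8%) and the 5 other genes together (67.7%) overlap.

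PU.1, which marks macrophage enhancers, was found with either treatment at 29 of the 44 AP-1 loci (65.9%), against 56.1% of all AP-1 loci. The share was 61.5% at Il10 and 67.7% at the pro-inflammatory genes. CEBPa was found at 12 of the 44 loci, against 31.5% of all AP-1 loci, and of these 1 lay at Il10 (4.3 kb upstream) and 5 at Il27. PPARg, mapped with Veh, was found at 11 of the 44, against 43.3% of all AP-1 loci, and of these 4 lay at Il10 (1.3, 6.1, 18.4 and 23.1 kb downstream, percentile 27.6 to 58). None of these 3 factors had a peak at 5 of the 13 Il10 loci, those 4.7, 14.0, 17.1 and 18.9 kb upstream and 7.0 kb downstream.

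Sequence matches were counted in the central 200 bp of the 44 AP-1 loci. A TRE, the canonical AP-1 site, was present at 9 (20.5%), against 26% of all AP-1 loci and 3.63% of windows 5 kb away. It was present at 5 of 13 loci at Il10 and 4 of 31 loci at the other genes. Centred on the strongest AP-1 peak instead, a choice made after seeing the data, the counts were 6 of 13 and 7 of 31, against 27.5% of all loci. The printed sequences can lie partly outside the windows counted, so a match in them need not be in these counts. The TRE of the Il6 promoter, for example, is outside the central 200 bp of its locus. In the sequences above, the Il10 locus 18.4 kb downstream holds 3 TREs, a CEBP and an NF-kB match. The Il12a locus 18.9 kb downstream holds a TRE and a CEBP match. The Il6 promoter holds a TRE, a CEBP and an NF-kB match, and the Il12b locus 9.8 kb upstream holds a CEBP and an NF-kB match and no TRE. Some Il10 loci occupied with both treatments are not printed. Of these, the loci 1.3 and 14.2 kb downstream hold a TRE, and the locus 23.1 kb downstream holds no match. An NF-kB match was present at 9 of 44 loci (20.5%), 2 at Il10 and 7 at the other genes, against 5.31% of all AP-1 loci and 9.31% of those seen with KLA only. A PU.1 match was present at 8 of 31 loci of the pro-inflammatory genes and 0 of 13 at Il10 (19% of all loci), and with centring on the strongest peak at 8 and 1. A CEBP match was present at 8 of 44 (15.5% of all loci), a CRE at 1 (1.38%) and an IRF match at 2 (3.89%). A match is a description of the letters and not a measured site.

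The Balb/cJ lists ask whether the same loci were bound in another strain. With KLA, a C57Bl/6EiJ locus also had a Balb/cJ peak at 34 of 42 loci for ATF3 (81%, against 76.9% of all ATF3 loci), 15 of 23 for Jun (65.2%, against 47.0%), 21 of 32 for JunD (65.6%, against 74.6%), 26 of 29 for Fos (89.7%, against 89.8%) and 21 of 22 for JunB (95.5%, against 79.7%). With Veh it was 6 of 13 for ATF3 (46.2%, against 63.6%), 4 of 9 for Jun (44.4%, against 49.0%) and 6 of 9 for JunD (66.7%, against 76.5%). Loci without a Balb/cJ peak had lower medians in C57Bl/6EiJ than shared loci, at these genes and also over all loci. Over all loci the KLA medians were 19.3 without and 60.3 shared for ATF3, and 24.5 and 60.2 for JunD. For Fos they were 18.4 and 54.1, and for Jun 36.4 and 68.7. At these genes the median percentile with KLA was 25.5 against 68.2 for ATF3, 24.5 against 84.9 for JunD, 18.4 against 72.8 for Fos (3 loci without) and 47.2 against 80.9 for Jun. With Veh, ATF3 had medians of 42.1 at the loci without a Balb/cJ peak and 70.8 at the shared loci, Jun of 30.1 and 72.6, and JunD of 14.3 and 66.3. The Jun KLA and ATF3 Veh medians without a Balb/cJ peak lay above those of all such loci, 36.4 and 26.1. The JunD KLA peak 6.1 kb downstream of Il10 (576, percentile 89.4) had no counterpart in Balb/cJ, although JunD Veh (49, percentile 58.2), ATF3 KLA (122, 90.4), Fos KLA (222, 94.3), JunB KLA (77, 81.7) and Jun KLA (51, 73.6) of Balb/cJ all had peaks there. The Jun KLA peak 8.9 kb upstream of Il27 (50, percentile 83) and the JunD KLA peak 0.4 kb downstream of Il23a (435, percentile 76.8) likewise had no Balb/cJ peak. With Veh, ATF3 at the Il12b locus 9.8 kb upstream (83, percentile 72.2) and 23.1 kb downstream of Il10 (66, percentile 60.3) had none, so that this Il12b locus was listed for AP-1 in Balb/cJ with KLA only. At the Il27 promoter JunD KLA was absent in C57Bl/6EiJ and present in Balb/cJ (71, percentile 70).

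**Figure D4:**
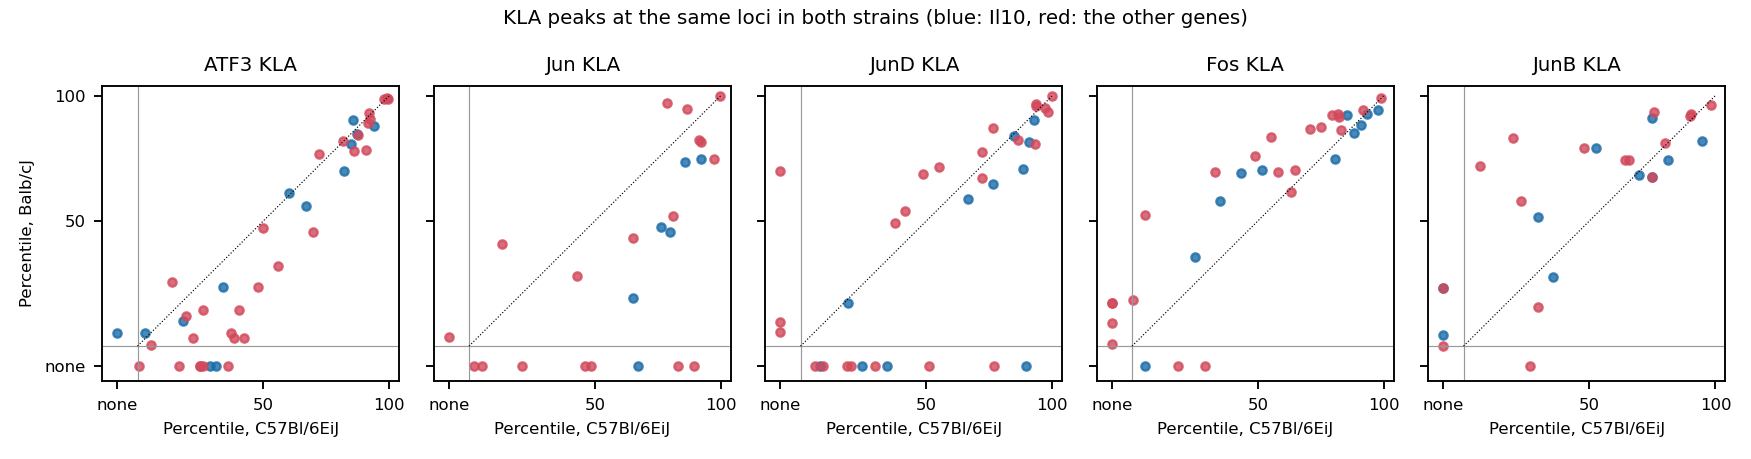
Percentile of the KLA peaks at the members' loci in C57Bl/6EiJ (x axis) and Balb/cJ (y axis) for the 5 monomers mapped in both strains, with 1 point per locus, blue for Il10 and red for the other genes, and points at "none" where a list had no peak. The JunD point at 89.4 on the lower edge is the Il10 locus 6.1 kb downstream.

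The PPARgKO lists ask which resting peaks were present without PPARg. The wild-type lists are those of C57Bl/6EiJ, the knockout labels give C57Bl6, and no list is labelled as the knockout's own control. A difference of substrain or experiment cannot be told apart from one of genotype. ATF3 had a PPARgKO peak at 11 of 13 wild-type loci (84.6%, against 79.3% of all ATF3 loci), JunD at 4 of 9 (44.4%, against 54.4%) and Jun at 1 of 9 (11.1%, against 22.1%). The Jun list of the knockout held 4290 peaks, against 15548 in the wild type. The 8 Jun loci without a knockout peak included those at Il10 18.4 and 23.1 kb downstream (both 32, percentile 66.6), at Il12b 14.7 kb downstream (39, percentile 78.6) and at the Apobr promoter beside Il27 (56, percentile 92.8), and the locus with one lay 12 kb upstream of Il27. PPARg had a peak at 4 of the 8 Jun loci without a knockout peak (against 61.4% of all such Jun loci) and at the 1 with one (against 87.2%). For JunD it had a peak at 3 of the 5 loci without a knockout peak (against 59.3%) and at 4 of the 4 with one (against 80.1%). For ATF3 it had a peak at 0 of 2 (against 43.4%) and 8 of 11 (against 66.8%). Whether PPARg binding and the loss of a peak go together was not tested. Jun peaks in the knockout list only lay 1.3 kb downstream of Il10 (13, percentile 8.1) and 0.4 kb downstream of Il23a (18, percentile 47.6). At Il10, ATF3 was listed in both genotypes 1.8, 6.1, 18.4 and 23.1 kb downstream. It was listed in the wild type only 14.2 kb downstream (38, percentile 22.4). JunD was listed in both 6.1 and 23.1 kb downstream, and in the wild type only 1.3 kb (34, percentile 14.3), 1.8 kb (59, percentile 62.6) and 18.4 kb (71, percentile 74.2) downstream. In the knockout only, ATF3 was listed at Il10 4.3 kb upstream (19, percentile 22.3) and 1.3 kb downstream (20, percentile 25.5). JunD was listed in the knockout only 4.3 kb upstream of Il10 (17, percentile 8.82).

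In the other direction, 7 loci had a knockout Veh peak of ATF3 or JunD and no wild-type Veh peak of ATF3, Jun or JunD (7 of 20 loci with a knockout peak, 35%, against 35.6% of all loci with one). They included the Il6 promoter, with 23 for ATF3 (percentile 34.6, Poisson interval 14.6 to 34.5) and 21 for JunD (percentile 19.3, interval 13 to 32.1). All 9 of these peaks had counts below the lowest count of the wild-type list, 25 for ATF3 and 27 for JunD, but the counts of these lists are not on a common scale. At the 11 ATF3 loci listed in both genotypes, the knockout count was the lower at 10, and at the 4 such JunD loci it was the lower at 2. Over all their peaks, the knockout lists had the lower median counts, 29 against 56 for ATF3 and 35 against 50 for JunD. These counts are therefore not read as weaker binding. At the shared ATF3 loci the median percentile was 60.3 in the wild type and 67.4 in the knockout. Over all shared ATF3 loci it was 58.5 and 67.4. For JunD it was 65.2 and 75.5 at these genes, against 63.8 and 71.4. With the lists of a factor cut to equal length, a choice made after seeing the data, 6 loci had a peak in the knockout only. The intervals cover counting error only.

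**Figure D5:**
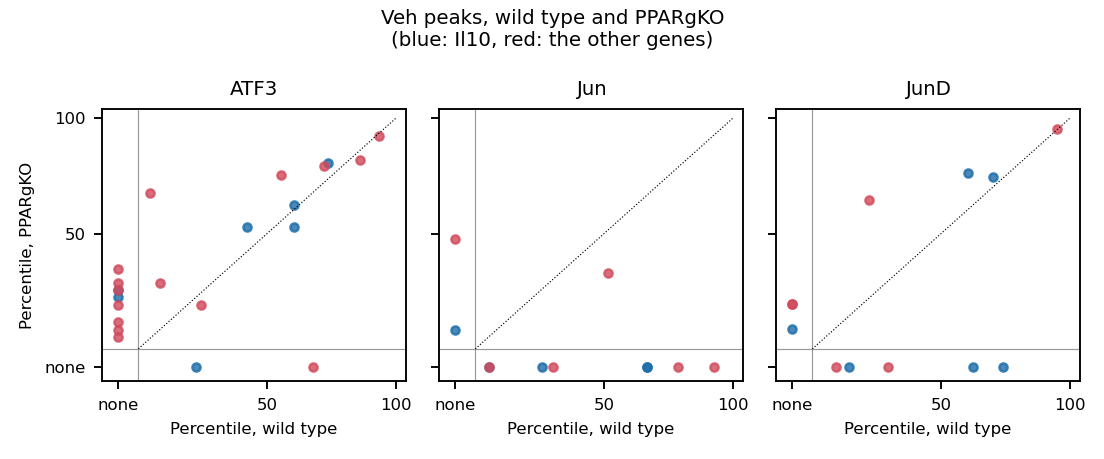
Percentile of the Veh peaks of ATF3, Jun and JunD at the members' loci in the wild type (x axis) and PPARgKO (y axis), with 1 point per locus, blue for Il10 and red for the other genes, and points at "none" where a list had no peak. ATF3 has 11 loci in both lists, and Jun has 1.

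The receptors and signal transducers of these cytokines were examined with the same window. Of 17 genes (Ebi3, the second subunit of IL-27, the receptor chains, Jak, Stat and Socs genes), 16 had an AP-1 locus in C57Bl/6EiJ, against 63.6% of protein-coding genes, and 16 had a locus seen with KLA only, against 43.4%. Their median was 6 AP-1 loci, and 57 of 127 loci (44.9%) were seen with KLA only, near the 38.0% of all AP-1 loci. Il10rb, a chain of the IL-10 receptor, had 14 loci, 9 with KLA only. Socs3, a feedback inhibitor of IL-6 signalling, had 15 loci, 5 with KLA only, and Il23r, a chain of the IL-23 receptor, had 0. Several of these genes are longer than the interleukin genes, and longer windows hold more loci.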

How the data were processed

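Values come from ChIP-seq of TGEMs, 30 peak lists for 34 samples, grouped by the sample labels. Per the labels and the study's methods, the authors aligned with Bowtie2. C57 reads went to mm10, whereas Balb/cJ reads went to a strain genome and were then placed on mm10. HOMER findPeaks with input as background made the peaks, and the authors removed peaks with an irreproducible discovery rate of 0.05 or more over replicate experiments. The deposited count of a peak is a whole number not scaled to library size, and how replicates were combined is not given in the sources used here. The deposited score is the scaled irreproducible discovery rate and was not used to rank. Library totals were not analysed here, so depth is known only as counts in peaks, which summed to between 9196 and 13809143 over the 28 lists with more than 100 peaks.

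Scripts in Python 3.11.15 with pandas 2.3.3, numpy 2.4.6, scipy 1.17.1, pysam 0.24.0 and matplotlib 3.10.9 ranked peaks by count within a list, with ties at their mean rank for percentiles, and joined peaks overlapping by at least 1 bp into loci. Genes were protein-coding models of GENCODE M21, and sequences were read from GRCm38, the assembly of mm10. Joining, classes and motif searches recovered the planted answers on simulated data. The planted loci stood far apart, so chaining of neighbouring peaks was not tried there. All 6 genes are described, with the locus seen in most lists, the locus closest to the TSS and each locus seen with KLA only in at least 3 lists. Other peaks named were chosen after their values were seen. The genes and lists were chosen with earlier results of these data known. No test was run, since each condition has 1 list. The windows, joining rule, list lengths and motif window were varied.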

Additional observations from a re-analysis of the deposited data

Results flagged for a closer look

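Jun had opposite gains and losses in the strains at 2 loci, with 1 list per condition and the difference not tested. At the locus 0.4 kb downstream of the Il23a TSS, Jun had a peak with KLA only in C57Bl/6EiJ (58, percentile 89.3) and with Veh only in Balb/cJ (26, percentile 37.1). At the locus 4.7 kb upstream of Il27, Jun had a peak with Veh only in C57Bl/6EiJ (20, percentile 30.1) and with KLA only in Balb/cJ (19, percentile 3.8).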

How the results depend on the processing

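Of 57 alternative values, 48 stayed within the 95% interval of the reported share or within 1.5 times the reported count. The number of loci at the genes, 57, became 35 with 5 kb and 98 with 50 kb on each side and 37 with the strongest 50% of each list. The share of AP-1 loci with a PU.1 peak, 65.9%, became 50% with the strongest 50% of each list. Still within its interval, it became 58% (29 of 50) with centres within 100 bp and with a reciprocal overlap of 50%. The share of Il10 loci seen with KLA only, 53.8%, became 25% with KLA lists cut to the length of the Veh lists for ATF3, Jun and JunD only. In each of 10 alternatives that share was lower at Il10 than at the pro-inflammatory genes, by as little as 58.8% against 60.8% with 50 kb on each side. All 10 used the C57Bl/6EiJ lists only, and in Balb/cJ the ATF3 share gained was not lower at Il10. These alternatives reuse largely the same loci, and several returned the same 7 of 13 at Il10, so they are not independent of each other. The share of Jun loci kept in PPARgKO, 11.1%, became 0% with 5 kb on each side (0 of 5), with centres within 100 bp (0 of 9) and with the strongest 50% of each list (0 of 5). The share of loci with a TRE, 20.5%, became 70.5% with 1 mismatch allowed. Equal list lengths for genotypes or strains, a motif window on the strongest peak and leaving out the JunD KLA list were chosen after seeing the data. With equal lengths 6 rather than 7 loci had a peak in the knockout only. No paired analysis was possible because each condition has 1 list, and no replicate could be left out. List lengths and lowest counts limit which absences can be read as a difference in binding.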
